A study of Bos taurus with 252 samples.

Results

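Lymphocyte homing and chemokine receptors were examined as a set of 8 genes, all of which were found by symbol among the 33282 genes of the count table and all of which were among the 19056 genes tested. They are CCR7, S1PR1, KLF2, CXCR4, CXCR5, CXCR3, CCR4 and CCR9, and the rule names them without using a measured value. The data are RNA-seq counts from whole blood of 42 crossbred steers sampled on the day of treatment (day 0) and again on 5 later days (days 3, 7, 14, 21 and then 56), with 1 library for each steer and day and 6 steers in each of 7 groups. NC cattle were negative controls without an antimicrobial, and the other groups received tulathromycin (TULA), tildipirosin (TILD), the cephalosporin ceftiofur (CEFT), the fluoroquinolone enrofloxacin (ENRO), the tetracycline oxytetracycline (OXYT) or the phenicol florfenicol (FLOR) once, after the day 0 blood had been drawn. Every steer, NC included, had been given tildipirosin, an implant of trenbolone acetate and estradiol, antiparasitic drugs and vaccines at the start of backgrounding, before arrival. Each group was kept in 1 pen, the groups were sampled in a fixed order after day 0, and the age of the steers was not given in the sources used here.

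Lymphocytes circulate between blood and lymphoid tissue, and surface receptors that read chemical gradients decide where they leave and enter the vessels. CCR7 brings naive and central memory T cells and B cells into lymph nodes, S1PR1 senses sphingosine-1-phosphate and lets them out again, and the transcription factor KLF2 maintains S1PR1 in resting cells. CXCR4 holds leukocytes in bone marrow through its ligand CXCL12, CXCR5 leads B cells and follicular helper T cells to B cell follicles, CXCR3 and CCR4 mark effector and memory T cells of different programmes, and CCR9 directs cells to the small intestine. No sequence or genome of the build used by the authors was at hand, so coordinates and sequences are not given here.

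Values are given as counts per 1000000 (CPM) scaled by TMM, a factor per library that corrects for composition. Library totals, in units of 1000000 counts, ran from 26.1 to 74.1 with a median of 43.6. The share of hemoglobin transcripts ran from 0.00405 to 25.5%, and 41 libraries were above 5%. The median share was 0.224% on day 0, 3.07% on day 14 and 3.36% on day 21. Each steer was sequenced on 1 of 3 lanes with 14 steers each. Lane 1 held NC, ENRO and 2 of the FLOR steers, lane 2 held TULA, the other 4 FLOR steers and 4 TILD steers, and lane 3 held CEFT, OXYT and the remaining 2 TILD steers. Lane, pen and treatment therefore cannot be told apart for most treatments, whereas days are compared within steers and within lanes. All defining T cell and B cell markers were present. The summed CPM of 10 T cell markers ranged from 1384 to 2866 on day 0 and from 1934 to 3988 on day 56, and that of 8 B cell markers from 958 to 2495 and from 1485 to 3272.

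The first comparison asked how the transcripts of these genes changed after day 0 in all 42 steers together. In an edgeR quasi-likelihood F test with steer as a block, 7 of the 8 members changed over days at an FDR of 0.05, beside 81% of all genes tested. On day 3 CCR7, CXCR5 and CCR4 were higher than on day 0 and CXCR4 was lower, when 22.1% of all genes were called higher and 19.2% lower. On day 7 there were 5 higher members, CCR7, KLF2, CXCR5, CXCR3 and CCR4, and CXCR4 was lower, against 25.3% and 20.6% of all genes. The same 5 were higher on day 14 and on day 21 and both S1PR1 and CXCR4 were lower, against 34.2% higher and 30.9% lower on day 14 and 34.1% higher and 32.5% lower on day 21. On day 56 the 5 were still higher and CXCR4 was lower, against 33.9% and 31.8%. The median log2 fold change of the 8 members was 0.090, 0.16, 0.20, 0.30 and 0.27 over the 5 later days in order, and the median of all genes tested lay between 0.017 and 0.032. In whole blood, fewer cells of a type and less RNA per cell cannot be told apart.

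**Figure D1:**
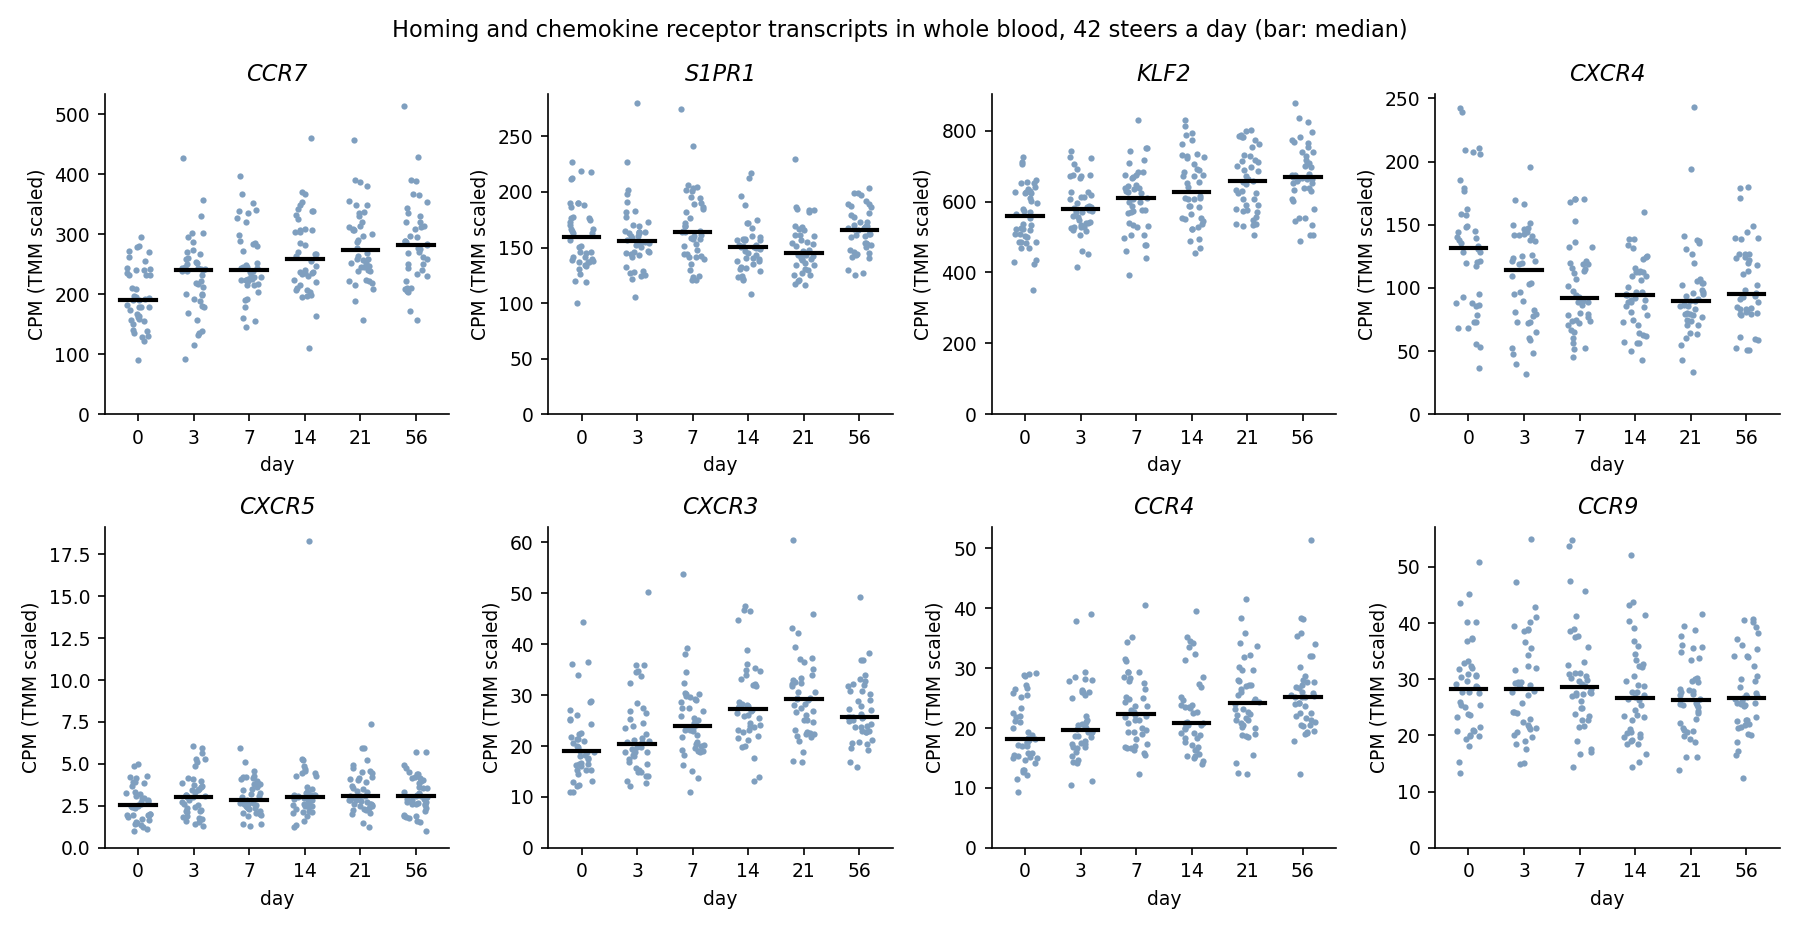
TMM-scaled CPM of the 8 members (y axis, from 0) by day (x axis), with 1 point for each of 42 steers a day and a bar at the median. The median of CCR7 went from 191 CPM on day 0 to 283 on day 56 and that of CXCR4 from 132 to 95.0, and 1 library of day 14 stood alone at 18.3 CPM of CXCR5.

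CCR7, the lymph node entry receptor, rose on all 5 later days. Its level ran from 91.3 to 295 CPM on day 0 (median 191), from 92.5 to 427 on day 3 (median 240), from 146 to 397 on day 7 (median 241), from 110 to 459 on day 14 (median 259), from 157 to 457 on day 21 (median 273) and from 158 to 513 on day 56 (median 283). The ranges of all days overlapped, with the medians in the order of the days. The log2 fold change from day 0 over the 5 later days in order was 0.22, 0.35, 0.44, 0.53 and 0.53, each ± 0.057 (SE, n = 42), with an FDR of 1.5e-16 on the last. The steers with more CCR7 than on day 0 numbered 30, 34, 38, 41 and 40 of 42 over the same days. Within the 3 lanes the day 56 values were 0.60, 0.42 and 0.53, all called, while the day 3 value was called on lane 1 alone (0.34, 0.22 and 0.062).

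KLF2, the transcription factor of quiescent lymphocytes, rose by a smaller amount. Its lowest, median and highest levels were 352, 558 and 726 CPM on day 0, and 489, 668 and 878 CPM on day 56. The groups of libraries overlapped widely. The log2 fold change was 0.075 ± 0.035 on day 3 (FDR 0.0754, not called), then 0.11, 0.19 and 0.24 with the same SE, and 0.27 ± 0.035 on day 56 (FDR 3.7e-12), when 35 of 42 steers were higher. On that day the lanes gave 0.21, 0.31 and 0.23, all called.

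S1PR1, the egress receptor, was called lower on days 14 and 21. On day 0 it ran from 100.3 to 226 CPM with a median of 160, on day 14 from 108 to 217 with a median of 150, on day 21 from 116 to 230 with a median of 145 and on day 56 from 125 to 204 with a median of 166. These ranges lie almost on top of each other. Its log2 fold change was -0.090 ± 0.034 on day 14 (FDR 0.0161) and -0.10 ± 0.034 on day 21 (FDR 0.00529), with 28 of 42 steers lower on each of these days. Values of -0.019 on day 3 (FDR 0.706), 0.056 on day 7 (FDR 0.174) and 0.041 on day 56 (FDR 0.292) were not called. Within lanes, days 14 and 21 were called lower on lane 2 (-0.15 on both) and not on lanes 1 (-0.024 and -0.068) and 3 (-0.14 and -0.13), and day 7 was called higher on lane 1 (0.19, FDR 0.0385). Within steers, the correlation of S1PR1 with KLF2 over all libraries was -0.020 as a description, while that of CCR7 with KLF2 was 0.51. The genes of a library share its depth and cell mixture.

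CXCR4, the receptor for the bone marrow retention signal CXCL12, was the one member that fell on every day after day 0. Its lowest, median and highest levels were 36.3, 132 and 242 CPM on day 0. They were 31.7, 114 and 196 CPM on day 3, then 45.2, 92.3 and 171 by day 7, and 43.3, 94.4 and 160 on day 14. On day 21 they were 33.7, 89.5 and 243 CPM, and at the end 50.8, 95.0 and 180. Some libraries of every day lay above the day 0 median. The log2 fold change over the 5 later days in order was -0.31, -0.39, -0.44, -0.43 and -0.34, each ± 0.094 (SE), with FDRs from 1.2e-05 to 0.00488. Between 28 and 31 of 42 steers were lower on each day. The fall was not the same within lanes. On lane 2 it was called on all 5 days with log2 values from -0.66 to -0.50, on lane 3 on days 3, 14 and 56, and on lane 1, which held NC, ENRO and 2 FLOR steers, on day 21 (-0.48, FDR 0.0152), where the value for day 3 was 0.081 (FDR 0.835).

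CXCR5, the B cell follicle receptor, had a median of 129.5 counts a library and at least 32. Its level ran from 0.981 to 4.99 CPM on day 0 with a median of 2.52, and the daily medians lay between 2.86 and 3.09 afterwards. It rose over the 5 later days in order by 0.27 ± 0.085, 0.22 ± 0.084, 0.34 ± 0.085, 0.36 ± 0.084 and 0.27 ± 0.085 on the log2 scale, with FDRs from 5.7e-05 to 0.0253. One library, of the FLOR steer Flor10 on day 14, held 18.3 CPM (786 counts), and the next highest of all libraries held 7.41. In the other libraries of that steer CXCR5 was between 3.11 and 5.94 CPM. The summed CPM of the 8 B cell markers in that library was 3753, the highest of all, and that of the T cell markers was 2506, inside the range of other libraries. Without this library, an alternative chosen after seeing the data, the day 14 value was 0.27 (FDR 0.00187). Within lanes the rise of CXCR5 was uneven, since on lane 3 no day was called and the day 7 value was -0.072 (FDR 0.731).

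CXCR3 and CCR4, receptors of effector and memory T cells, both rose. CXCR3 ran from 10.9 to 44.3 CPM on day 0 (median 19), from 11 to 53.8 on day 7 (median 23.9), from 16.8 to 60.6 on day 21 (median 29.2) and from 15.9 to 49.3 on day 56 (median 25.7). It was highest on day 21. The log2 fold change was 0.11 ± 0.054 on day 3 (FDR 0.109, not called), then 0.28, 0.47, 0.54 and 0.41 with the same SE (FDR 2.8e-18 on day 21), and 39 of 42 steers were higher on day 21. Within lanes the day 21 values were 0.36, 0.71 and 0.50, all called, but on lane 1 the day 7 value was 0.054 (FDR 0.759). CCR4 ran from 9.28 to 29.3 CPM on day 0 (median 18.1) and from 12.3 to 51.5 on day 56 (median 25.2). Its log2 fold change was 0.12 ± 0.050 on day 3 (FDR 0.0451), then 0.27, 0.21 and 0.35 with the same SE, and 0.43 ± 0.050 on day 56 (FDR 1.9e-14), when 39 of 42 steers were higher and all lanes were called (0.50, 0.42 and 0.31). The day 3 call of CCR4 was lost by RLE scaling (FDR 0.0586), by DESeq2 (FDR 0.059), without the filter on low counts (FDR 0.0843) and without the block (FDR 0.255).

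CCR9, the gut homing receptor, was the one member not called in the F test over days (FDR 0.0557). The daily medians lay between 26.4 and 28.5 CPM, with libraries from 12.5 to 55 CPM. The log2 values against day 0 lay between -0.063 ± 0.046 on day 21 and 0.067 ± 0.046 on day 7, and no day was called (smallest FDR 0.222). It was called over days in several alternatives, namely RLE scaling, DESeq2, no filter, hemoglobin genes left out, libraries above 5% hemoglobin left out and NC steers left out. Without the libraries above 5% hemoglobin the day 7 value was 0.12 (FDR 0.0352). When days were put in order by their mean log2 CPM, no pair of neighbouring days of any member differed by more than the SD of the difference within steers. CCR7 for example differed by 0.22 between days 0 and 3 with an SD of 0.48.

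**Figure D2:**
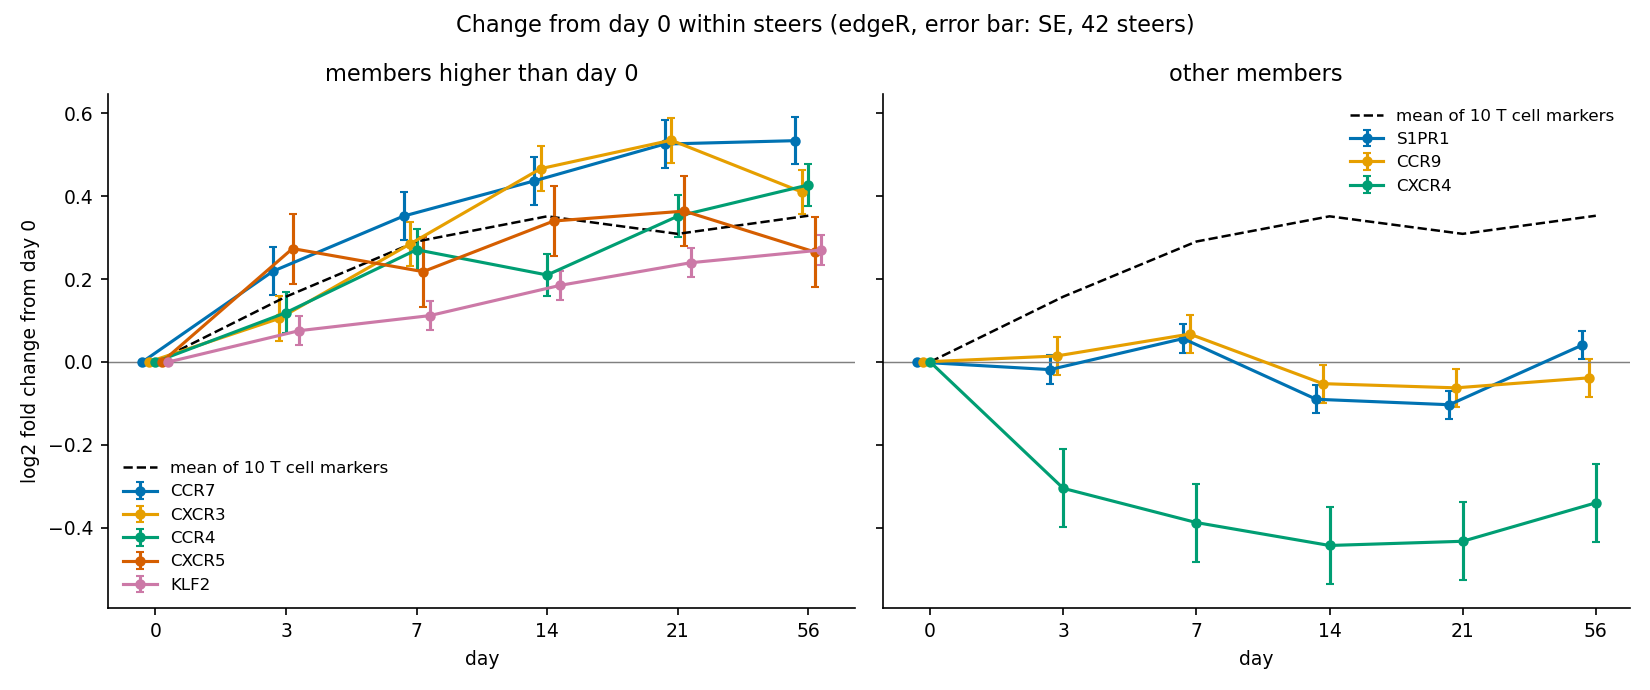
Log2 fold change from day 0 (y axis) by day (x axis) from the edgeR fit with steer as a block, with SE bars over 42 steers; the dashed line is the mean change in log2 CPM of 10 T cell markers. The left panel holds the 5 members called higher, ending at 0.53 for CCR7 and 0.27 for KLF2 on day 56, and the right panel holds S1PR1 and CCR9 near 0 and CXCR4 at -0.44 on day 14.

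Markers of blood cell types also changed. Their counts stand beside the shares of all genes given above, which were 22.1% higher on day 3, 25.3% higher and 20.6% lower on day 7 and 33.9% higher and 31.8% lower on day 56. Of the 10 T cell markers, 7 were higher on day 3, 10 on day 7 and 9 on day 56, with 1 lower on day 56. The leading ones were CD3E and CD3D, chains of the T cell receptor complex, with log2 fold changes of 0.66 and 0.54 on day 56, CD247 with 0.61 on day 56 and CD5 with 0.48 on day 21. Of the 8 B cell markers, 7 were higher and 1 lower on day 56, led by the kinase BLK with 1.18, and VPREB3 was at 0.86 on day 56 and CD79B at 0.53 on day 14, while PAX5 was lower on day 14 (-0.56). BLK also stands in the list of gamma delta T cell markers, where 4 of 5 were higher on day 56, CD163L1 by 3.57 and WC1.3 by 1.14. Genes of the WC1 family and the hemoglobin genes have near-identical copies, and how reads were divided among them is uncertain. All 6 monocyte markers were lower from day 7 on, with CD163 at -1.59, VCAN at -1.55 and CD14 at -0.94 on day 14. The alarmins S100A8 (-1.04), S100A9 (-0.85) and S100A12 (-0.75) and the protease MMP9 (-0.80) were lower among the neutrophil markers on day 21. NK and cytotoxic markers divided, with GZMB at 0.70 on day 14 and NCR1 at -0.59, PRF1 at -0.40 and NKG7 at -0.23 on day 56. Erythroid transcripts rose, HBA1 by 3.72 on day 14 and HBA by 3.55, HBB by 3.33 and ALAS2 by 3.17 on day 21. Among eosinophil markers ALOX15 (2.49) and IL5RA (1.68) were higher on day 56 and SIGLEC8 was lower on day 7 (-0.54), and among platelet markers PF4 (0.71), PPBP (0.47) and GP9 (0.45) were higher on day 3 and ITGA2B (0.14) on day 56. Their part in the results for the 8 members was not tested, other than by the ratio to T cell markers that follows.

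Each member was next set against the mean log2 CPM of the 10 T cell markers of the same library, so that the scaling of the library largely cancels. The mean of these markers rose by 0.16 ± 0.19, 0.29 ± 0.18, 0.35 ± 0.20, 0.31 ± 0.18 and 0.35 ± 0.20 (SD, n = 42) over the 5 later days in order. The median log2 fold change of all genes tested was only 0.017 to 0.032. A gene whose CPM did not change therefore comes out lower in this ratio through the rise of the markers alone. Changes were tested by a sign-flip permutation test over steers with Benjamini-Hochberg adjustment over 45 tests, and 20 of the 40 tests of a member against T cell markers on 1 day were called. The ratio was not tested for all genes, so this count has no share of all genes beside it and is not particular to these receptors.

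Relative to the T cell markers, S1PR1 was lower on all 5 days, while in CPM it was called lower on days 14 and 21 only. The differences in order were -0.17 ± 0.27, -0.23 ± 0.36, -0.43 ± 0.29, -0.40 ± 0.27 and -0.31 ± 0.33 (SD, n = 42), with 40 of 42 steers lower on day 14 (permutation p = 1e-05, the smallest that 100000 resamples can give, adjusted 4.1e-05). CCR9 ran beside it with -0.14 ± 0.25, -0.23 ± 0.37, -0.40 ± 0.28, -0.37 ± 0.27 and -0.39 ± 0.32 on the same days. Again 40 of 42 steers were lower on day 14, though in CPM no day of CCR9 was called. CXCR4 had differences from -0.44 ± 0.67 on day 3 to -0.76 ± 0.65 on day 14, all 5 days being called, with 40 of 42 steers lower on day 14 (adjusted permutation p = 4.1e-05). KLF2 was lower on day 7 (-0.18 ± 0.23, adjusted permutation p = 4.1e-05) and day 14 (-0.17 ± 0.27, adjusted permutation p = 0.000418), but not called on the other days.

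The receptors that rose in CPM were called on few days against the T cell markers. CCR4 was not called on any day (differences from -0.13 to 0.089) and neither was CXCR5, whether set against T cell markers (-0.079 to 0.11) or B cell markers (-0.17 to 0.11). CCR7 was higher than the T cell markers on day 21 (0.23 ± 0.34, adjusted permutation p = 7.5e-05) and day 56 (0.20 ± 0.38, adjusted permutation p = 0.0027), and CXCR3 on day 21 (0.25 ± 0.39, adjusted permutation p = 6e-04). With the summed CPM of the markers in place of their mean log2 CPM these 3 differences were 0.059, 0.037 and 0.073 and none was called (adjusted permutation p = 0.361, 0.604 and 0.246). The median of this sum went from 1907 CPM on day 0 to 2748 CPM on day 56. The other differences, those of CCR4 and KLF2 included, are given for the mean log2 CPM only.

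**Figure D3:**
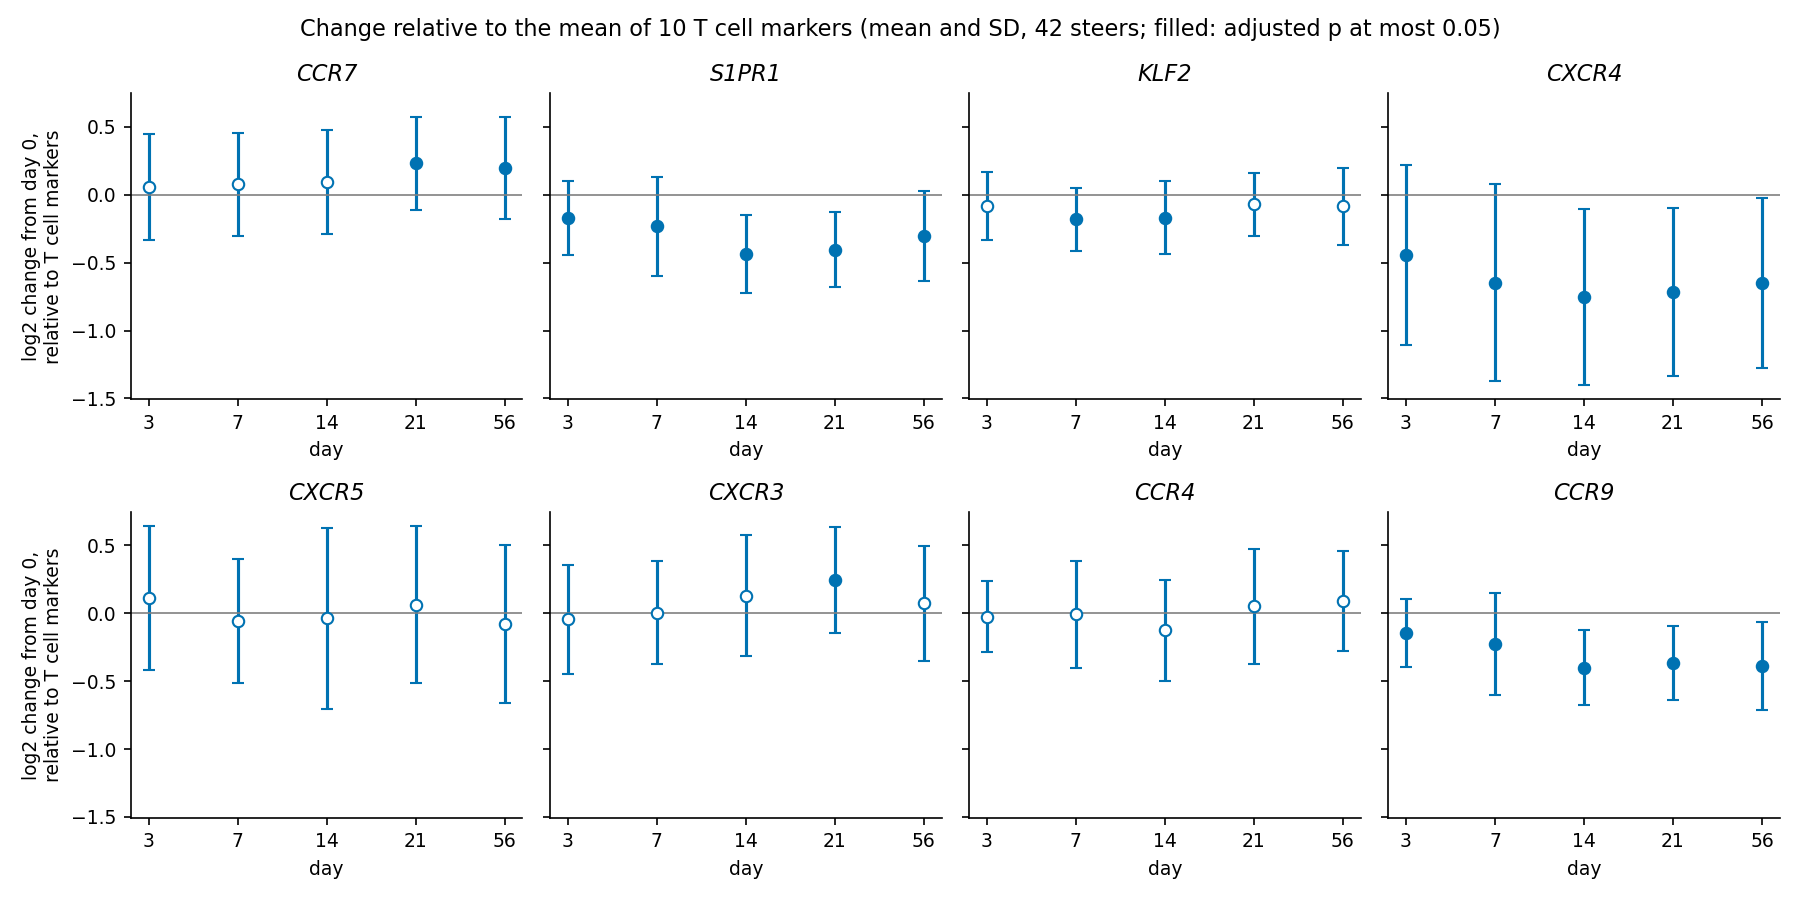
Change from day 0 in log2 CPM of each member less the mean of 10 T cell markers (y axis) by day (x axis), mean and SD over 42 steers; filled points have an adjusted p of at most 0.05. S1PR1, CXCR4 and CCR9 lie below 0 with filled points on all 5 days, reaching -0.43, -0.76 and -0.40 on day 14, while CCR4 and CXCR5 have open points throughout.

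Other genes of the same pathways were taken from lists by function. Of 17 other chemokine receptors, 4 were higher and 9 lower on day 21, when 34.1% of all genes were higher and 32.5% lower. On day 56 there were 2 higher and 7 lower, beside 33.9% and 31.8%. The largest changes were in the neutrophil receptor CXCR1 at -0.86 ± 0.11 (SE), CCR1 at -0.85 ± 0.22 and XCR1, a receptor of dendritic cells, at -0.81 ± 0.20 on day 21, and in the eosinophil receptor CCR3 at 0.96 ± 0.093 on day 56. Among the ligands, 6 of 10 passed the filter and 3 were higher on day 56, beside 33.9% of all genes. CXCL12, the ligand of CXCR4, went from 10.4 ± 5.43 CPM (SD, n = 42) on day 0 to 19.2 ± 6.69 CPM on day 56, a log2 fold change of 1.0 ± 0.056 (FDR 5e-41), in the opposite direction to its receptor. CCL25, the ligand of CCR9, was higher by 0.20 ± 0.041 on day 14, and CXCL10, a ligand of CXCR3, had a value of 0.48 ± 0.21 on day 3 (FDR 0.0517). CCL21, CXCL9, CXCL11 and CCL17 were not tested because they did not pass the filter on low counts.

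Adhesion molecules of homing had 1 higher and 7 lower of 10 tested on day 14, beside 34.2% and 30.9% of all genes. On days 21 and 56 there were 2 higher and 3 lower, beside 34.1% and 32.5% and then 33.9% and 31.8%. ICAM3, an adhesion molecule of resting leukocytes, was at -0.59 ± 0.087 on day 7, the integrin chain ITGA4 at -0.51 ± 0.049 on day 56 and the hyaluronan receptor CD44 at -0.39 ± 0.041 on day 7. In the S1P pathway, 4 of 12 genes were higher and 5 lower on day 21, beside 34.1% and 32.5% of all genes. CD69, which pulls S1PR1 from the cell surface, was at -0.77 ± 0.11 on day 21 and the S1P phosphatase SGPP1 at -0.85 ± 0.061, while the S1P transporter SPNS2 (0.68 ± 0.064) and the kinase SPHK2 (0.53 ± 0.038) were higher on day 56.

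Of the signalling genes below these receptors, 3 were higher and 13 lower of 23 on day 7, beside 25.3% and 20.6% of all genes, and 8 were higher and 10 lower on day 21, beside 34.1% and 32.5%. RGS1 (-0.75 ± 0.16) and RGS2 (-0.69 ± 0.095), which shorten G protein signals, were lower on day 21, the small GTPase RAP1B was at -0.63 ± 0.057 on day 56, and the G protein subunit GNAI3 was at 0.71 ± 0.21 on day 7. Of 14 transcription factors of homing receptors, 4 were higher and 5 lower on day 21, beside 34.1% and 32.5%. BCL6, a factor of germinal centre B cells and follicular helper T cells, was at -1.36 ± 0.082 and KLF6 at -0.81 ± 0.055 on day 21, PRDM1 at -0.70 ± 0.065 on day 56 and KLF4, a relative of KLF2, at -0.61 ± 0.069 on day 14. Of 8 glucocorticoid response genes, 6 were lower and 1 higher on day 21, beside 32.5% and 34.1% of all genes, and SGK1 was at -0.79 ± 0.066 and DUSP1 at -0.66 ± 0.11 on that day, FKBP5 at -0.73 ± 0.097 and KLF9 at -1.15 ± 0.18 on day 14.

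The genes most alike to each member were named by Pearson correlation of log2 CPM within steers over all libraries among 13802 genes. This is a description, because the genes of a library share its depth and cell mixture. CCR7 was most like VSTM2L (r = 0.87), IFITM10 (0.87) and STAG3 (0.84). KLF2 was most like IRF2BP1 (0.80), NUP62 (0.80) and TRIM28 (0.79), and CXCR3 like PTPN7 (0.83), SEPTIN1 (0.81) and SKAP1 (0.80). CXCR4 was most like BTG1 (0.74), DUSP1 (0.70) and CITED2 (0.70), whose log2 fold changes on day 21 were -0.42, -0.66 and -0.23. CCR4 was most like WC1-12, a WC1 gene (0.69), ENPP1 (0.68) and TCF7, a T cell factor (0.68). Coefficients were lower for the others, with TOX (0.61), LOC104971613 (0.56) and TSPYL1 (0.54) for S1PR1, HEATR6 (0.59) and FCMR (0.56) for CXCR5 and AFDN (0.54), CNNM2 (0.51) and SYNE2 (0.49) for CCR9.

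Steers differed from each other, and their levels on day 0 and later went together. Over the 6 days of a steer, the mean level ranged from 15.6 to 44.1 CPM for CCR9, from 1.44 to 6.93 for CXCR5, from 14.1 to 50.8 for CXCR3 and from 63.5 to 169 for CXCR4, and the smallest ratio of the highest to the lowest steer was 1.56 for KLF2. Steers within groups took 74.9% of the variance of CCR9 and 53.8% of that of S1PR1, but 19% of that of KLF2. Days took 22.3% for CCR7 and 18.9% for CXCR3, but 1.02% for CCR9. Treatments took 23.4% for KLF2, more than steers or days (16.5%), and 15.8% for CXCR3. For the other members treatments took 2.94 to 11.3%. Treatments cannot be told apart from pens or, for most of them, from lanes. These shares include day 0, before administration. KLF2 on day 0 already had group means from 461 ± 81.1 CPM in TILD to 619 ± 64 CPM in ENRO (SD, n = 6). The level on day 0 was correlated over 42 steers with the mean of the later days in all 8 members after subtraction of group means, with adjustment over the 8. For CCR9 Pearson's r was 0.828 (permutation p = 1e-05) and Spearman's rho 0.850 (permutation p = 1e-05), r was 0.800 without the 2 steers farthest from the median, and within lanes it was 0.903, 0.869 and 0.767. For CXCR4, the weakest, r was 0.374 (permutation p = 0.026) and rho 0.360 (permutation p = 0.0316), r was 0.445 without those 2 steers and within lanes it was 0.344, 0.470 and 0.345. The Pearson coefficients of the other members were between 0.413 for CCR7 and 0.639 for CXCR3, with adjusted permutation p from 4e-05 to 0.0104, and their rho was between 0.441 for KLF2 and 0.654 for CXCR5, with adjusted permutation p from 8e-05 to 0.00715. For these members leaving out the 2 farthest steers gave r of 0.435 to 0.601. Within lanes their coefficients ran from 0.219 for S1PR1 on lane 3 to 0.888 for CXCR5 on lane 3.

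**Figure D4:**
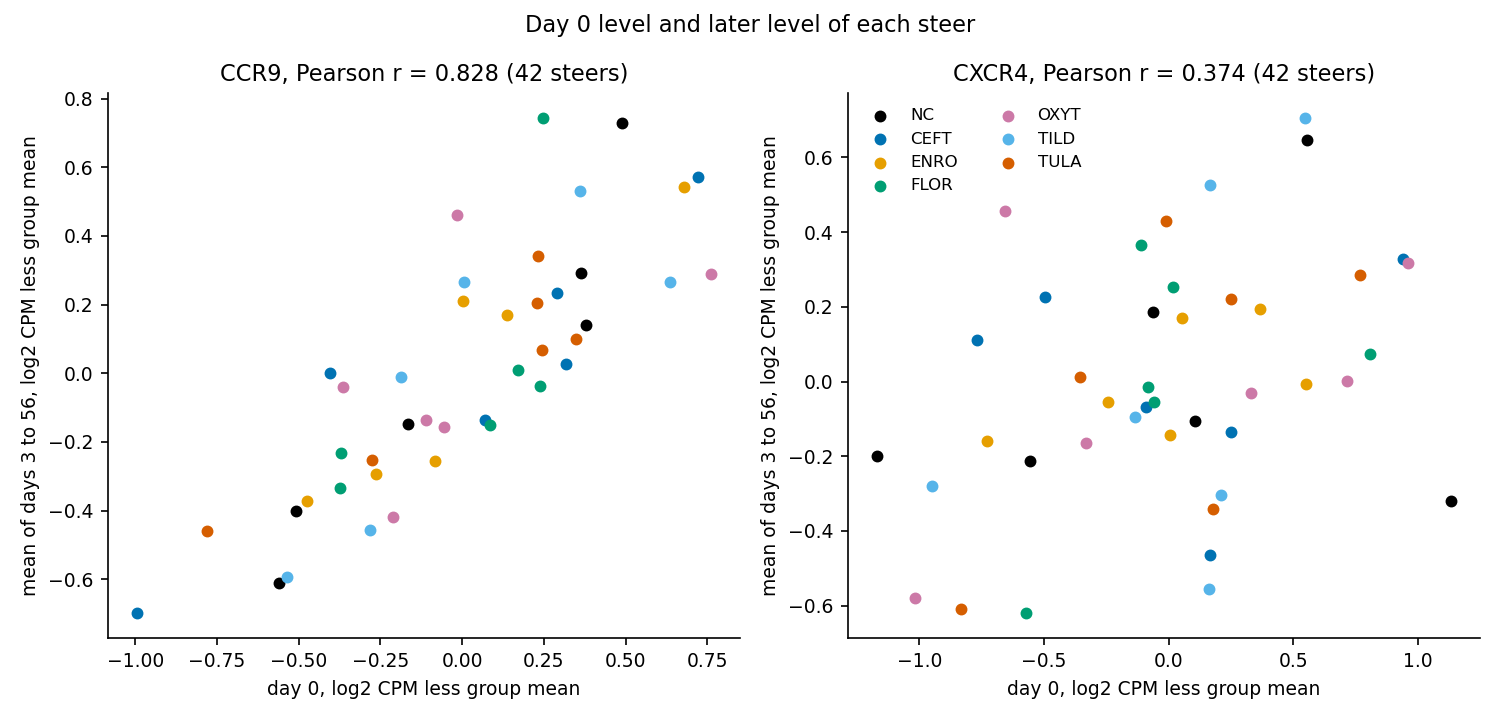
Mean log2 CPM of days 3 to 56 (y axis) against log2 CPM on day 0 (x axis), both less the group mean, with 1 point per steer coloured by group. CCR9 follows a line with r = 0.828 over 42 steers, and CXCR4 is scattered with r = 0.374.

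A pair of members was called correlated over the mean levels of 42 steers if both coefficients passed adjustment over the 28 pairs, and 2 pairs were. S1PR1 and CCR9 had r = 0.584 (permutation p = 0.00017, adjusted 0.00476) and rho = 0.586 (permutation p = 3e-04, adjusted 0.0084), with 0.536 without the 2 farthest steers and 0.657, 0.589 and 0.467 within lanes. CCR7 and CCR9 had r = 0.535 (permutation p = 0.00086, adjusted 0.0120) and rho = 0.499 (permutation p = 0.00246, adjusted 0.0344), with 0.458 without those steers and 0.580, 0.613 and 0.416 within lanes. CCR7 and S1PR1 passed by Pearson's r alone (r = 0.473, permutation p = 0.00408, adjusted 0.0381) and not by rho (0.337, permutation p = 0.043, adjusted 0.205). Their r was 0.313 without the 2 farthest steers and 0.785, 0.474 and -0.138 within lanes, so it did not hold on lane 3. When every level was taken relative to the T cell markers of the same libraries, r was 0.182 for S1PR1 and CCR9, 0.158 for CCR7 and CCR9 and 0.017 for CCR7 and S1PR1, and no pair was called.

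The next comparison asked whether an antimicrobial changed these transcripts relative to NC on the same day. None of the 288 tests of a member was called by edgeR's quasi-likelihood test at an FDR of 0.1, beside 0.694% of all tests, and in no test were the 6 treated steers and the 6 NC steers free of overlap. At an unadjusted p under 0.05 there were 28 such tests, and the share of all genes at this p is not given here. The smallest FDR was 0.131, for CXCR3 in FLOR on day 3. There the 6 FLOR steers had 14.1 to 21.5 CPM with a median of 14.9 and the 6 NC steers 17.4 to 28.5 with a median of 20.6, a log2 difference of -0.46 ± 0.14 (SE). On day 0, before administration, the FLOR steers had 10.9 to 21.4 CPM and the NC steers 16.5 to 36.4, with overlap, and a log2 difference of -0.83 ± 0.24 (FDR 0.803). The likelihood ratio test called 0 of the 288 as well, and DESeq2 called 5, CXCR3 in CEFT and in FLOR on day 3, KLF2 in the same groups and day, and CXCR5 in TULA on day 21. The share of all genes that DESeq2 called is not given here, so its 5 calls cannot be set against it.

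Over all 6 days together, limma with steer as a random block called none of the 48 differences between a treatment and NC at an FDR of 0.05, beside 1.95% of all tests. Of the 48, 7 had an unadjusted p under 0.05, and the share of all genes at this p is not given here. KLF2 came nearest. The steer means of TILD ran from 471 to 597 CPM with a median of 521 and those of NC from 548 to 707 with a median of 582, a log2 difference of -0.20 ± 0.074 (SE, FDR 0.0906), and it was -0.22 on day 0. CXCR3 in FLOR had a difference of -0.41 ± 0.13 (FDR 0.0954), CXCR5 in FLOR 0.56 ± 0.19 (FDR 0.115) and CCR4 in TULA -0.38 ± 0.13 (FDR 0.150). For these the day 0 values were -0.83, 0.59 and -0.45. As a change from day 0 within steers, the same 4 differences were 0.033, 0.47, -0.082 and 0.075, and none was called (smallest FDR 0.950). Without the filter on low counts the first 3 of the 4 were called at FDRs of 0.006, 0.0306 and 0.0431. The share of all genes called without the filter is not given here. The lane adjustment by ComBat_seq that the study used was made here without a treatment term. NC was on lane 1, TULA on lane 2 and TILD on lanes 2 and 3. The adjustment can therefore remove a treatment difference together with the lane, and a lost call does not decide between them. After it, none of the 4 was called. KLF2 in TILD was then at -0.11 (FDR 0.999) and CCR4 in TULA at -0.081 (FDR 1), while CXCR3 and CXCR5 in FLOR were at -0.36 (FDR 0.320) and 0.50 (FDR 0.366). In the order of the 7 group means, the neighbours of all members but KLF2 differed by less than the larger of their SDs, and for KLF2 this held for 5 of 6 pairs of neighbours.

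Whether the change from day 0 differed between the treatments and NC was tested by the interaction of treatment and day. Over all 30 coefficients CXCR3 was called (FDR 0.0443), beside 31% of all genes, and CCR7, KLF2, CXCR4 and CXCR5 had an unadjusted p under 0.05 (FDR 0.0536, 0.0949, 0.0656 and 0.0763). Of the 19056 genes tested, 8088 had an unadjusted p under 0.05 in this F test. The mean of days 3 to 56 less day 0 in CXCR3 was 0.057 ± 0.41 (SD, n = 6) in NC, with 3 steers higher and 3 lower, and the group means of the treatments lay between 0.33 ± 0.25 in OXYT and 0.55 ± 0.18 in TILD, where 6 of 6 steers were higher. Before administration NC had the highest mean of the 7 groups, 26.1 ± 8.41 CPM, against 14.7 to 25.5 CPM in the others. The medians of NC over the 6 days in order were 26.6, 20.6, 21.4, 30.3, 31.2 and 29.6 CPM, and those of TILD were 18.6, 25.2, 29, 27.2, 31.4 and 29. NC was thus below its day 0 median on days 3 and 7 and above it afterwards. Without the filter on low counts the FDR of CXCR3 was 0.0543, and without the steer as a block it was 1. CXCR5 was called when the day 14 library of Flor10 was left out (FDR 0.0159). Pen and treatment cannot be told apart in this test. Lane cannot either, except for ENRO, on lane 1 with NC, and in part FLOR, with 2 steers there.

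In single treatments, none of the 8 members was called by the edgeR F test over 5 days at an FDR of 0.05, while 12 of these tests had an unadjusted p under 0.05. Over the 6 single treatments together, 20472 tests of all genes had such a p, with 19056 genes tested in each treatment. The shares of all genes called were 8.67% for ENRO, 4.65% for CEFT, 3.25% for OXYT, 0.861% for FLOR, 0.420% for TILD and 0.0420% for TULA. The nearest was CXCR4 in CEFT (FDR 0.0731), whose change from day 0 less that of NC was -1.09, -0.94, -0.73, -0.12 and -0.61 over the 5 later days in order.

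In the NC steers alone CXCR4 was not called on any day. That fit holds 6 steers against 42, so a missing call decides little. Their lowest, median and highest levels were 36.3, 83 and 179 CPM on day 0, 60.4, 115 and 168 on day 7 and 33.7, 71.8 and 98.4 on day 21. The day 0 mean of NC was 92.8 ± 51.1 CPM (SD, n = 6), below those of the 6 other groups, which lay between 122 and 149 CPM, though none of these differences before administration was called (smallest FDR 0.721). From day 0 to the mean of the later days, CXCR4 moved by 0.11 ± 0.81 (SD, n = 6) in NC with 4 of 6 steers higher, by -0.085 ± 0.71 in OXYT with 3 of 6 higher, and by -0.34 to -0.60 in ENRO, TULA, TILD, FLOR and CEFT, where 4 to 6 of 6 steers were lower. Fitted over the NC steers alone, the log2 values over the 5 later days in order were 0.22, 0.33, 0.025, -0.40 and -0.015, with FDRs of 0.933, 0.601, 0.965, 0.384 and 0.981. The NC mean was 69 ± 23.1 CPM on day 21. With the NC steers left out, chosen after seeing the data, CXCR4 was lower on all 5 days, with log2 values from -0.53 to -0.39. The difference between NC and the treatments over all 30 coefficients was not called, as given above.

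**Figure D5:**
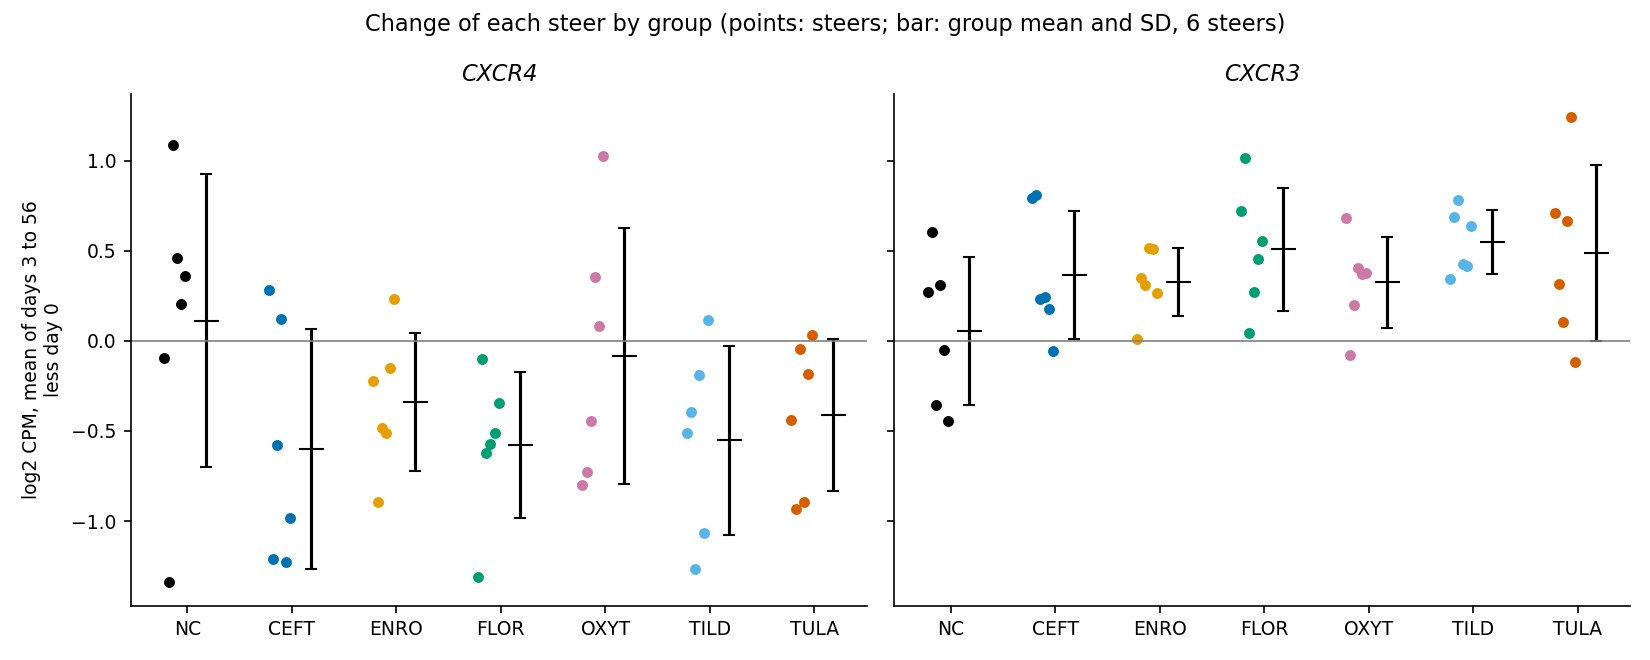
Mean log2 CPM of days 3 to 56 less day 0 (y axis) for CXCR4 and CXCR3 in the 7 groups (x axis), with 1 point per steer and the mean and SD of 6 steers. For CXCR4 the NC mean is 0.11 and the CEFT mean -0.60, for CXCR3 the NC mean is 0.057 and the TILD mean 0.55, and the steers of the groups overlap in both panels.

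The order in which the groups were sampled after day 0, NC, ENRO, FLOR, TULA, TILD, CEFT and OXYT, was set against the group means of the change. In exact permutation tests over the 7 groups none of the 8 members was correlated with this order after adjustment. The nearest were S1PR1 with r = -0.587 (exact p = 0.162, adjusted 0.754) and rho = -0.500 (exact p = 0.267, adjusted 0.806), and CXCR5 with r = -0.568 (exact p = 0.188, adjusted 0.754) and rho = -0.714 (exact p = 0.0881, adjusted 0.705). Without the 2 groups at the ends of the order r was -0.630 and -0.538. Order and treatment cannot be told apart.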

How the data were processed

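PAXgene whole blood RNA of 42 steers was sequenced as stranded mRNA libraries. The counts as deposited by the authors were made with Trimmomatic 0.39, HISAT2 2.1.1 (per the labels), StringTie 2.2.0 on ARS-UCD1.3 and prepDE.py3 for reads of 150 bases, which derives whole-number counts from transcript coverage. They are not normalized and not adjusted for lane. Groups, days and lanes came from the labels. All 252 libraries were used.

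Analyses were run in R 4.3.3 with DESeq2 1.42.0, sva 3.50.0, edgeR 4.0.16 and limma 3.58.1, and in Python 3.11.15 and scipy 1.17.1. A gene was tested if 12 or more libraries had over 0.2 CPM, which kept 19056 of 33282, with TMM scaling and Benjamini-Hochberg adjustment over all genes tested. Days were compared by edgeR's quasi-likelihood test with steer as a block (FDR 0.05). Treatments were compared with NC by day (quasi-likelihood, FDR 0.1), over all days by limma voom with duplicateCorrelation on steer (correlation 0.359, FDR 0.05) and by the interaction with day (FDR 0.05). The mixed model package of the study was not at hand. Log2 CPM used a prior count of 2, and permutation tests used 100000 two-sided resamples. Libraries of a steer are paired because they come from 1 animal. Their deviations from group means correlated with a median of 0.342, against -0.0694 for other steers. Without that block 7 members still changed over days. Tests were also run on simulated counts with known changes and no lane or pen differences, and the outcome is not reported here.

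The 8 members, the gene lists and the tests were chosen with earlier results of these data known. Named genes were the members, up to 4 genes of each list with the largest change on any day among those past the F test at a mean CPM of at least 1, and the 3 genes most like each member. A few genes that this rule names are not reported here. Alternatives were RLE scaling, no filter on low counts, DESeq2, the likelihood ratio test, ComBat_seq by lane, lane as a term, single lanes, NC steers alone, no hemoglobin genes, libraries of at most 5% hemoglobin, a prior count of 0.5, summed T cell markers, levels relative to T cell markers, days 3 to 56 only and the change within steers. Leaving out 1 FLOR library and leaving out the NC steers were chosen after seeing the data.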

Additional observations from a re-analysis of the deposited data

Results flagged for a closer look

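Each group of 6 steers was searched for a sample far from the others, by the ratio of the gap to the range against Dixon's critical value. Chance alone flags about 1 in 20 sets if the values are normal and the sets independent. The search used CPM without a log scale, and sets of different days and genes share steers. The counts below therefore cannot be read as an excess over that rate. Over the mean of the 6 days, 1 of 56 sets was flagged, CCR9 in FLOR, where steer Flor3 was at 40.7 CPM and the next steer at 26.4.

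On single days, 27 of 336 sets were flagged. For CCR7 they were NC7 on day 7 (366 CPM), Oxyt4 on day 14 (348), Oxyt9 on day 56 (513) and Tild2 on days 7 (397) and 21 (457). For S1PR1 they were Enro6 on days 3 (280 CPM), 14 (217) and 21 (230), Flor8 on day 21 (186) and Tild2 on day 7 (196). KLF2 was high in NC5 on days 0 (654 CPM) and 3 (665), and CXCR4 in Flor10 on day 0 (242) and Tild2 on day 21 (243). CXCR5 was high in Flor10 on day 14 (18.3 CPM, next 4.70), Tild8 on day 56 (4.07) and Tula6 on day 21 (7.41), and CXCR3 in Ceft4 on day 7 (53.8), Flor3 on day 3 (21.5), Oxyt2 on day 0 (36.2) and Tild3 on day 14 (38.8). CCR4 was high in NC5 on day 56 (51.5 CPM) and Tild2 on day 7 (35.1), and CCR9 in Ceft4 on day 21 (41.5), Flor3 on days 7 (54.8) and 56 (39.2) and Oxyt5 on day 0 (50.9). Every one of these lay above its group.

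The change of CXCR3 from day 0 differed between the groups by the edgeR interaction test over 30 coefficients (FDR 0.0443), beside 31% of all genes called. The call was lost without the filter on low counts (FDR 0.0543) and without the steer as a block.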

How the results depend on the processing

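Counts were lowest for CXCR5, with 32 in its lowest library. Pen and treatment cannot be told apart, nor can lane for most treatments. RLE scaling, DESeq2 and no filter on low counts each changed 1 of the 40 calls of a member on a day, CCR4 on day 3. Without the steer as a replicate block, 7 members changed over days, 19 member and day pairs lay above day 0 and 5 below, S1PR1 on days 14 and 21, CXCR5 on days 3, 7 and 56 and CCR4 on day 3 lost the call, and no member had an interaction (0 against 1). Over the NC steers alone 2 of 8 members changed over days, against 7. Of 23 pairs above day 0, lane 2 gave 15, lane 3 13 and the NC steers 7. Of 7 pairs below, lane 1 gave 1, lane 3 3 and the NC steers 0. Against NC by day DESeq2 called 5 tests in place of 0, and in the effect over all days no filter called 3 in place of 0. The shares of all genes called under these settings are not given here. The interaction count of 1 became 0 without the filter and 2 without the day 14 library of Flor10. Relative to T cell markers 0 pairs of members were correlated over steers, against 2. Single lanes and NC alone hold fewer steers, and the cause of the other moves was not tested.

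The sign turned in 16 values, none of which passed the threshold under the alternative. On lane 1, day 3 gave 0.029 for S1PR1, -0.019 for KLF2, 0.081 for CXCR4 and -0.052 for CXCR3. On lane 2, CCR9 was at -0.084 on day 3. On lane 3, S1PR1 was at -0.040 on day 7 and -0.048 on day 56, CXCR5 at -0.072 and CCR9 at -0.0073 on day 7. Over NC steers alone CXCR4 was at 0.22, 0.33 and 0.025 on days 3, 7 and 14, CXCR3 at -0.25 and -0.24 on days 3 and 7 and CCR9 at -0.073 on day 7. With NC steers left out CCR9 was at -0.017 on day 3. Of the other values, 459 kept direction and call, 62 lost the call and 3 gained it.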
